A study of Mus musculus with 12 samples.

Results

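The genes described here encode the enzymes of the neutrophil's primary granule and 2 proteins tied to them. Mpo, Elane, Prtn3 and Ctsg encode the granule's peroxidase and serine proteases, Ms4a3 encodes a membrane protein of the progenitors that make the granules, and Serpinb1a encodes a cytosolic inhibitor of the proteases. They were chosen by name, as every probe of the deposited values whose annotated symbol is one of these 6 genes. This gave 10 of the 38502 probes, 4 for Mpo, 2 for Ms4a3 and 1 for each of the others, and all 10 passed the filter on dim probes that 21962 probes passed.

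The study hybridised RNA of mouse leukaemia stem cells to 12 Illumina bead arrays, 6 labelled WT and 6 labelled Terc-/-. Every sample carried MLLAF9gfp, the MLL-AF9 fusion oncogene of human acute myeloid leukaemia linked to green fluorescent protein. Per the labels, C57BL/6J mice 6 to 8 weeks old received 5.5 Gy and then 10000 bone marrow cells, either WT or G3 Terc-/-, sorted as lin-, kit+ and sca1+ and expressing the fusion. When each leukaemia appeared, cells that were lin-, kit+, Fcgr+ and positive for the fusion's fluorescence were sorted from the host's marrow. Terc encodes the RNA template of telomerase, and G3 is the usual name for mice of the third generation without it. The Terc-/- arrays also carry a phosphorylation status, p-p53 (Ser15) for replicates 2, 3 and 6, p-Foxo3a (Ser253) for replicates 1 and 4, and none for replicate 5. The fusion drives the disease in both genotypes, so neither group stands for normal marrow. Whether each sample is a different animal is not stated, so the p-values describe only how far these samples spread, which may be technical, and the number of arrays limits their precision.

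The arrays of WT replicates 5 and 6 were nearly identical, as were those of Terc-/- replicates 2 and 6. Within both pairs 0 kept probes differed 2-fold, against at least 281 in each of the other array pairs. Each pair was averaged and counted as 1 sample, which left 5 WT and 5 Terc-/- samples, of the latter 2 p-p53, 2 p-Foxo3a and 1 with no status. Values are log2 units throughout, with a background limit of 6.57 and a highest value of 15.95 on the arrays. Of 10 marker genes of leukaemia stem cells or granulocyte-macrophage progenitors, 9 were on the array and 8 lay above the limit in every sample, Kit among them. Markers of other cells lay above the limit in at least 1 sample for 2 of 6 T-cell and NK-cell genes on the array (not Cd3e, Cd3g, Cd8a or Ncr1), 4 of 5 B-cell genes (not Pax5), 5 of 6 erythroid, 5 of 5 megakaryocyte, 4 of 6 stromal or endothelial and 3 of 5 dendritic genes. The same held for 9 of 9 monocyte, 7 of 7 macrophage and 8 of 8 eosinophil, basophil or mast cell genes. Above the limit in every sample were 0 T-cell and NK-cell, 0 erythroid, 0 stromal, 0 dendritic, 1 megakaryocyte, 2 B-cell, 2 macrophage, 4 eosinophil, basophil or mast cell and 5 monocyte genes. Of 11 mature neutrophil genes on the array, 10 lay above the limit in at least 1 sample and 9 in every sample. For normally spread background values 5% pass the limit on an array, so a pass in 1 sample can be noise. On each array 19280 to 19465 of the 38502 probes passed it. Of the stromal genes, Col1a2, Col3a1 and Cdh5 read at most 6.67, 6.61 and 6.66, and Pdgfrb up to 8.06. The knockout itself was not checked, since no probe is annotated to Terc.

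Primary granules are made at the promyelocyte stage, and transcription of their enzymes is switched off as neutrophils mature further. The transcription factors PU.1, C/EBP, MYB and RUNX1 are known to act on several of these genes in granulocyte-macrophage progenitors. Myeloperoxidase makes hypochlorous acid from hydrogen peroxide, and the granule proteases digest proteins of microbes and of tissue.

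Elane and Prtn3 lie next to each other on mouse chromosome 10, before Cfd, which encodes the related serine protease complement factor D. Mpo lies beside Lpo, the gene of the related lactoperoxidase, on chromosome 11. Ctsg lies between the related protease genes Mcpt8 and Gzme on chromosome 14. Ms4a3 follows Ms4a2 on chromosome 19, and Serpinb1a lies beside Serpinb1c on chromosome 13. The 250 bases before the annotated start were read for 5 of the 6 genes from RefSeq (GRCm38.p6), because these genes are known to share transcription factors. They are Mpo, chr11:87793534-87793783 on the + strand, Elane, chr10:79886062-79886311 on the + strand, Prtn3, chr10:79879417-79879666 on the + strand, Ctsg, chr14:56102575-56102824 on the - strand, and Ms4a3, chr19:11640852-11641101 on the - strand. Each runs 5′ to 3′ along its gene, with capitals for matches to AGGAAGT (PU.1 and other ETS factors), CAACGG (MYB), TTGCNNAA (C/EBP) or TGTGGT (RUNX), searched on both strands with letters chosen with these sequences in view.
Mpo: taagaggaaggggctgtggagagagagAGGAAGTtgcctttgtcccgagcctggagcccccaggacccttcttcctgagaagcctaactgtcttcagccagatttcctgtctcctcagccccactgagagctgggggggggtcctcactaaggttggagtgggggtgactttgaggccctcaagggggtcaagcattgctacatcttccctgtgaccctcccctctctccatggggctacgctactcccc
Elane: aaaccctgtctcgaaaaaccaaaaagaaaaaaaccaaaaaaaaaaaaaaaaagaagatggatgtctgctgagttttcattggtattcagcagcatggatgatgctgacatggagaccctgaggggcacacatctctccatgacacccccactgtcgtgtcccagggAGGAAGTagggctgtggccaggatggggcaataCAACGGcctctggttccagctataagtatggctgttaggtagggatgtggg
Prtn3: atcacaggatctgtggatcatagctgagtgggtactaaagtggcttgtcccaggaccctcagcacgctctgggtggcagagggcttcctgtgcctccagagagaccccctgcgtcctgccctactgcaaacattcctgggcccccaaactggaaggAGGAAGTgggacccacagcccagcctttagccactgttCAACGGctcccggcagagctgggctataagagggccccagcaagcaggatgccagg
Ctsg: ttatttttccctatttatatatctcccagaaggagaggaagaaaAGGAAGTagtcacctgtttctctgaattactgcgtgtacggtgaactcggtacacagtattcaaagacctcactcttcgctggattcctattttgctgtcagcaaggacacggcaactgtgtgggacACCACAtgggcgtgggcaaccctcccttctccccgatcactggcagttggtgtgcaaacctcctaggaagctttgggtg
Ms4a3: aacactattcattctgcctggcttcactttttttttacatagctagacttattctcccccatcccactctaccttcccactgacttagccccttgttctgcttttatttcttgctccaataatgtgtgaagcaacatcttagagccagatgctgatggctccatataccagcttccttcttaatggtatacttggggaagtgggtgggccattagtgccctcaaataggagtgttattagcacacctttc
AGGAAGT was found in 4 of the 5 promoters, against 7.69% of all 32851 promoters of this length. It ended 217 bases before the start of Mpo, 78 before that of Elane, 88 before that of Prtn3 and 200 before that of Ctsg. CAACGG was found in Elane and Prtn3 alone, 46 and 51 bases before the start, against 4.05% of all promoters. TGTGGT was found on the other strand of Ctsg, where it reads ACCACA, against 14.05% of all promoters. TTGCNNAA was found in 0 of the 5, against 9.56% of all promoters, and the Ms4a3 window held none of these motifs. Because the letters were chosen with these sequences in view, the shares cannot test for enrichment. These are descriptions of letters in a window and not of binding.

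Mpo, the myeloperoxidase gene, had 4 probes, here numbered from the brightest. In WT replicates 1 to 4 and the averaged replicates 5 and 6, the first probe read 15.49, 15.65, 15.70, 15.69 and 15.65. In Terc-/- replicate 1, the averaged replicates 2 and 6, and replicates 3, 4 and 5, it read 15.60, 15.72, 15.59, 13.72 and 15.77. All samples but Terc-/- replicate 4 thus lay within a narrow band under the array maximum, and the groups overlapped.

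The second probe, in the same order, read 14.96, 15.57, 15.72, 15.54 and 15.66 in WT and 15.54, 15.64, 15.66, 13.30 and 15.49 in Terc-/- samples. Terc-/- replicate 4 was again lowest, and WT replicate 1 stood below the other WT samples.

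The dimmer Mpo probes spread much more widely. The third read 12.30, 14.72, 15.16, 13.72 and 14.39 in the WT samples and 13.37, 15.32, 14.80, 10.38 and 13.23 in the Terc-/- samples. The fourth read 11.70, 14.20, 14.58, 13.32 and 13.81 in WT and 12.90, 14.73, 14.40, 9.95 and 12.83 in Terc-/- samples. On both, Terc-/- replicate 4 was lowest and WT replicate 1 next, and the averaged p-p53 replicates 2 and 6 were highest. The third and the fourth probes put all 10 samples in the same order, and their offset stayed between 0.40 and 0.60. The first probe gave only 4 of the 10 samples the same place as the fourth, and its offset from the fourth ran from 0.99 to 3.79.

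Set against the median of the other Terc-/- samples, replicate 4 differed by -1.94 on the first Mpo probe, by -2.29 on the second and by -3.70 and -3.71 (13-fold lower on both) on the third and the fourth. WT replicate 1 differed from the median of the other WT samples by -0.17 on the first probe and by -2.30 (4.93-fold lower) on the fourth. On 11 of the 12 arrays the first probe lay within 0.5 of the array maximum, as the second did on 10, while the third and the fourth did on 0. Over all arrays, kept probes whose mean lay within 0.5 of the maximum had a median SD of 0.0849 (88 probes), against 0.200 for probes between 12 and 14. Whether the upper limit narrows the range of a gene's brightest probe was not tested, so the differences of the first and the second Mpo probe may be too small and are given without a fold here. The third and the fourth Mpo probes ranged over 4.94 and 4.79 across the 10 samples. Of the 412 kept probes with 1 annotated gene and a mean of 13 to under 15, 7 ranged over 4 or more. These 2 Mpo probes are among the 7.

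**Figure D1:**
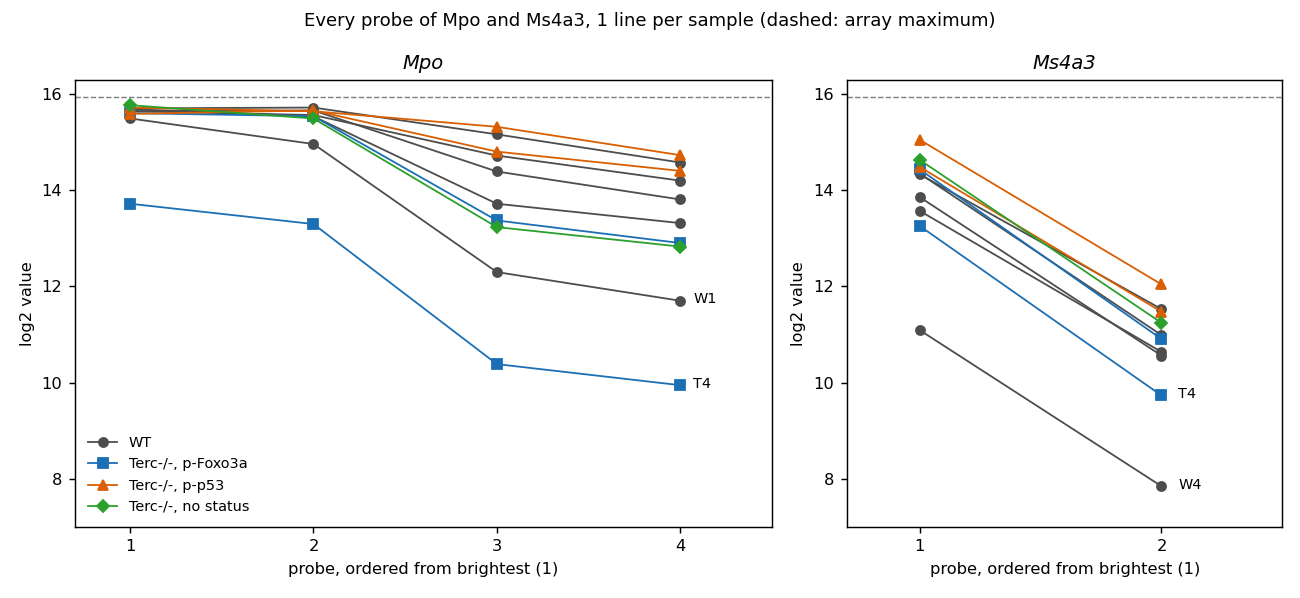
Deposited log2 value (vertical axis) of each probe of Mpo and Ms4a3, ordered from the brightest (horizontal axis), with 1 line per sample and the array maximum dashed. The samples lie close together on the first Mpo probe, apart from Terc-/- replicate 4 at 13.72. On the fourth Mpo probe they fan out to between 9.95 and 14.73. The offset between the Ms4a3 probes runs from 2.80 to 3.53, and 5 of the 10 samples keep the same place on both.

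Elane encodes neutrophil elastase, the gene altered in inherited human neutropenias. It read 15.76, 15.81, 15.88, 15.86 and 15.85 in the WT samples and 15.76, 15.83, 15.84, 15.37 and 15.84 in the Terc-/- samples. Every value but that of Terc-/- replicate 4 lay within 0.5 of the array maximum.

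Prtn3 encodes proteinase 3, the target of autoantibodies in human vasculitis. It read 15.48, 15.72, 15.89, 15.78 and 15.76 in WT and 15.82, 15.74, 15.76, 15.39 and 15.77 in Terc-/- samples. Terc-/- replicate 4 was lowest and WT replicate 1 next, as on all Mpo probes.

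Ctsg encodes cathepsin G, a protease of chymotrypsin type. It read 14.88, 15.62, 15.74, 15.27 and 15.45 in WT and 15.69, 15.75, 15.19, 14.89 and 15.60 in Terc-/- samples. WT replicate 1 and Terc-/- replicate 4 were lowest and nearly equal, and 7 of the 12 arrays lay within 0.5 of the maximum. With 1 probe each, the 3 protease genes ranged over 0.50, 0.50 and 0.87 across samples, and no dimmer probe shows whether their range is as narrow as that.

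**Figure D2:**
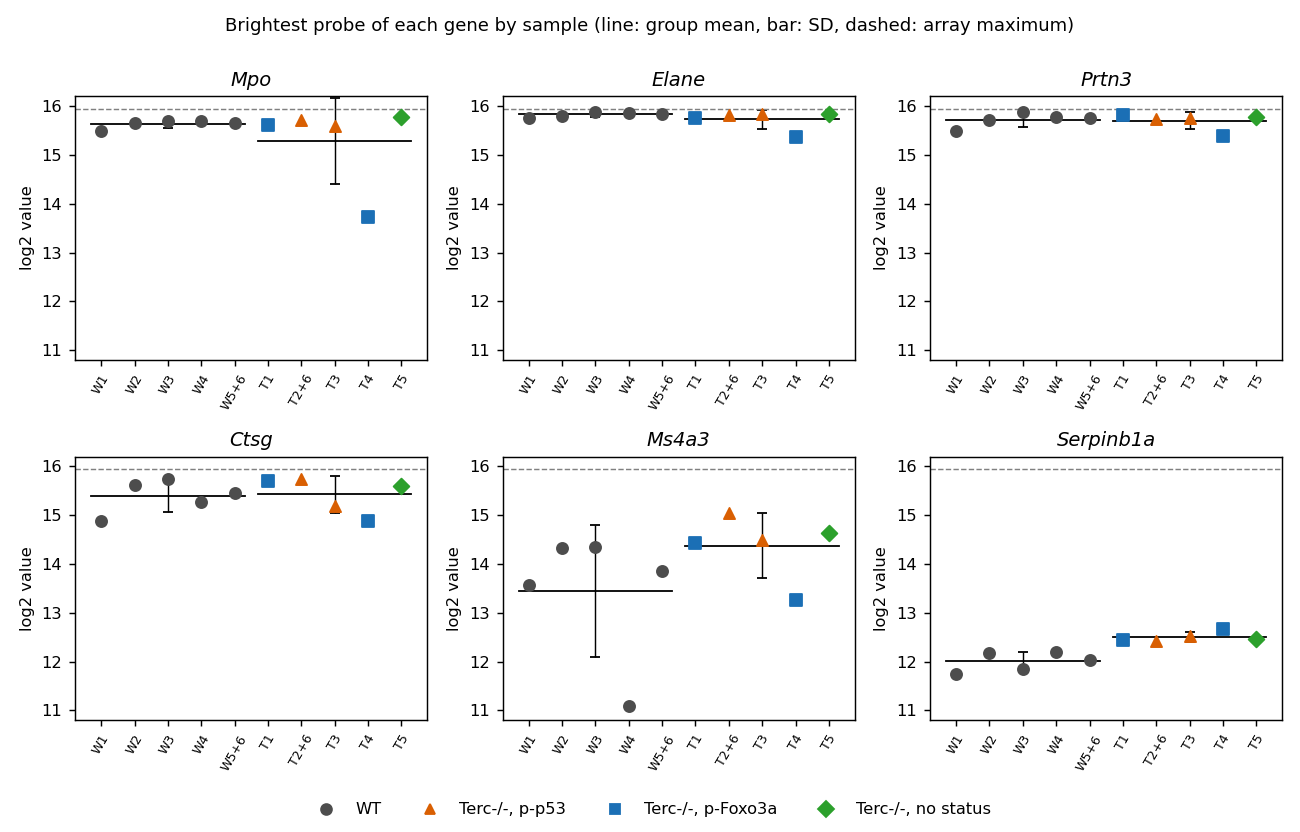
Deposited log2 value (vertical axis) of the brightest probe of each gene in each of the 10 samples (W, WT; T, Terc-/-; numbers are replicates), with group mean (line), SD (bar) and array maximum (dashed). Elane and Prtn3 lie within 0.5 of the maximum in all samples but T4, Ms4a3 is lowest in W4 at 11.09, and all 5 Terc-/- samples lie above all 5 WT samples for Serpinb1a.

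Ms4a3 marks granulocyte-macrophage progenitors in mouse marrow. Its brighter probe read 13.57, 14.33, 14.35, 11.09 and 13.86 in WT and 14.44, 15.05, 14.49, 13.26 and 14.63 in Terc-/- samples. WT replicate 4 stood far below all others, with Terc-/- replicate 4 next, and the groups overlapped.

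The dimmer probe read 10.64, 11.53, 10.99, 7.84 and 10.56 in WT and 10.91, 12.04, 11.47, 9.73 and 11.24 in Terc-/- samples. WT replicate 4 differed from the median of the other WT samples by -3.00 (8.02-fold lower) on the brighter and by -2.97 (7.83-fold) on the dimmer probe. The departure was thus of like size on both Ms4a3 probes, neither of which reached within 0.5 of the maximum on any array. Over all samples their offset ran from 2.80 to 3.53, and only 5 of the 10 samples had the same place on both. WT replicate 4 was not the lowest WT sample on any Mpo, Elane, Prtn3 or Ctsg probe. The low Ms4a3 and the low Mpo among WT samples were in different samples, whereas Terc-/- replicate 4 was the lowest Terc-/- sample for Mpo, Elane, Prtn3, Ctsg and Ms4a3.

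Serpinb1a, whose product inhibits elastase, proteinase 3 and cathepsin G in the cytosol, read 11.75, 12.18, 11.85, 12.19 and 12.03 in WT and 12.45, 12.41, 12.53, 12.67 and 12.45 in Terc-/- samples. The lowest Terc-/- sample lay above the highest WT sample. Terc-/- replicate 4, the lowest Terc-/- sample for the enzymes, was the highest of all samples for Serpinb1a.

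**Figure D3:**
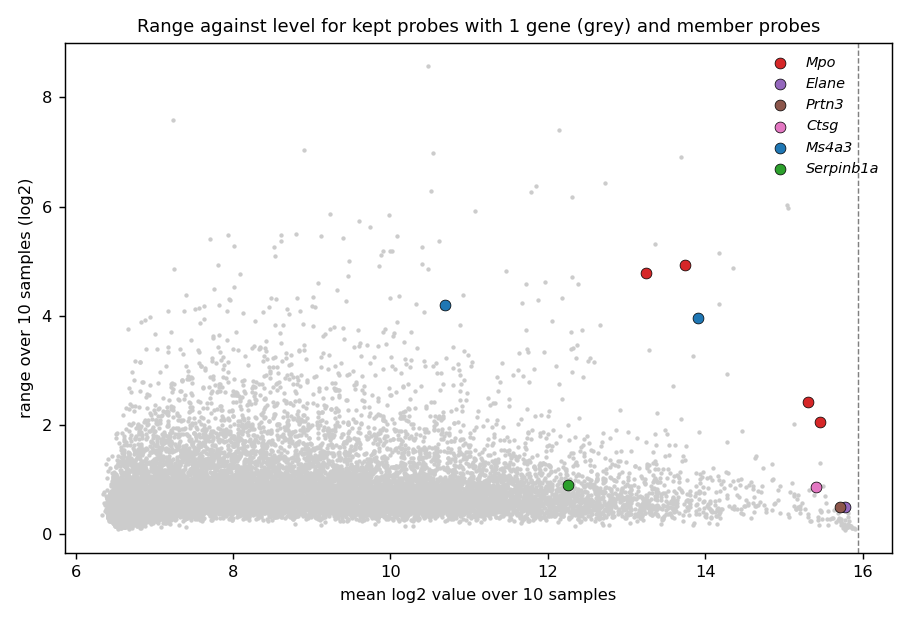
Range over the 10 samples (vertical axis, log2) against mean log2 value (horizontal axis) for kept probes with 1 gene (grey) and the 10 probes of the 6 genes (coloured), with the array maximum dashed. The third and the fourth Mpo probes and both Ms4a3 probes have wide ranges for their level, the other Mpo probes range over 2.05 and 2.42 near the maximum, and Elane, Prtn3 and Ctsg lie where ranges of bright probes narrow.

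The main comparison asks how the stem cells of Terc-/- leukaemias differ from those of WT leukaemias. Serpinb1a averaged 12.50 ± 0.10 in the Terc-/- group and 12.003 ± 0.20 in the WT group (SD, n = 5 each), a difference of 0.50 ± 0.10 (SE), or 1.41-fold, with a 95% confidence interval of 0.28 to 0.72. It ranked 8 of the 11916 genes by unadjusted p, and its adjusted p was 0.503 by limma with Benjamini-Hochberg adjustment, so it did not pass the threshold of 0.05. Ms4a3 averaged 14.37 ± 0.67 in the Terc-/- group and 13.44 ± 1.35 in the WT group (SD, n = 5 each), a difference of 0.93 ± 0.59 (SE) with an adjusted p of 0.723 by limma. Without WT replicate 4, the low sample, that difference was 0.34.

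Mpo averaged 15.28 ± 0.88 in the Terc-/- group and 15.64 ± 0.08 in the WT group (SD, n = 5 each) on its first probe. It differed by -0.35 ± 0.35 (SE) there, with an adjusted p of 0.815 by limma. On the second, the third and the fourth probe it differed by -0.36, -0.64 and -0.56. Without Terc-/- replicate 4 the first-probe difference was 0.04. The differences of Elane (-0.10), Prtn3 (-0.03) and Ctsg (0.03) had 95% intervals that ran from -0.32 to 0.11, from -0.26 to 0.20 and from -0.41 to 0.48.

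Of the 6 genes, 3 were higher and 3 lower in Terc-/- samples, with a median difference of 0.00 against -0.01 over all genes. None passed the test, nor did any gene (0% of 11916 by limma, of which 884 had an unadjusted p under 0.05). Serpinb1a was the 1 gene of the 6 whose groups did not overlap, as 1.19% of all genes tested did.

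**Figure D4:**
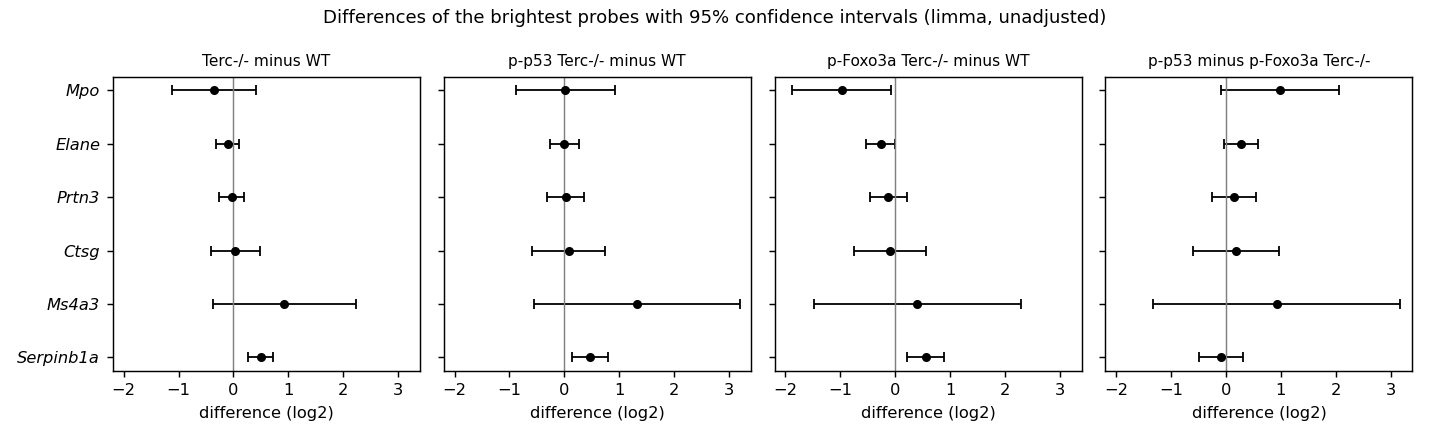
Difference in log2 units (horizontal axis) of the brightest probe of each gene (rows) in the 4 comparisons, with the 95% confidence interval of limma, not adjusted for the number of genes. The Serpinb1a intervals against WT lie above 0 in all 3 comparisons, those of Mpo and Elane lie below 0 only for p-Foxo3a against WT, and none of these differences passed the adjusted threshold.

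A fit of 3 levels, without Terc-/- replicate 5, set the samples of each phosphorylation status against WT and against each other. The comparisons with WT share the WT samples, so they are not independent. In p-p53 samples, Ms4a3 averaged 14.77 ± 0.40 (SD, n = 2), which is 1.33 ± 0.82 (SE) above WT with an adjusted p of 1.00 by limma, and both p-p53 samples lay above all WT samples. On the dimmer probe the difference was 1.45 ± 0.86 (SE) and the groups overlapped, and without WT replicate 4 the brighter-probe difference was 0.74. Serpinb1a averaged 12.47 ± 0.08 (SD, n = 2), which is 0.47 ± 0.15 (SE) above WT with an adjusted p of 1.00 by limma, again without overlap. Mpo differed by 0.02 on the first probe, by 0.16 on the second, by 1.00 on the third and by 1.05 ± 0.87 (SE) on the fourth. On the fourth probe the p-p53 value of 14.40 lay inside the WT range and that of 14.73 just above it. Elane (0.00), Prtn3 (0.02) and Ctsg (0.08) differed from WT by less than their SE. For 2 of the 6 genes the p-p53 and WT samples did not overlap, against 8.34% of all genes, and 0% of 11916 genes passed the adjusted threshold by limma (313 had an unadjusted p under 0.05).

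In p-Foxo3a samples, Mpo averaged 14.66 ± 1.33 (SD, n = 2) on the first probe, a difference from WT of -0.97 ± 0.39 (SE), with an adjusted p of 0.506 by limma. On the second probe the difference was -1.07 ± 0.49 (SE), with overlap. On the third and the fourth probes the difference was -2.18 ± 0.88 (SE) and -2.10 ± 0.87 (SE), or 4.53-fold and 4.28-fold, with adjusted p of 0.509 and 0.515 by limma over all kept probes. Both differences rest on unlike samples, since replicate 1 read 12.90 on the fourth probe, inside the WT range, and replicate 4 read 9.95, below it. Without replicate 1, which leaves replicate 4 alone in the group and assumes that it varies like the other samples, Mpo differed from WT by -1.92 on the first probe and passed (adjusted p = 0.00905 by limma). Without replicate 4 the difference was -0.03, and over all alternatives the adjusted p ran from 0.00905 to 0.939 by limma.

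Elane averaged 15.57 ± 0.27 (SD, n = 2), a difference of -0.27 ± 0.11 (SE) from WT, with an adjusted p of 0.511 by limma and both samples under all WT samples, although replicate 1 and WT replicate 1 both read 15.76. Without replicate 4 its difference was -0.07. Serpinb1a averaged 12.56 ± 0.15 (SD, n = 2), or 0.55 ± 0.15 (SE) above WT, with an adjusted p of 0.460 by limma and no overlap. Prtn3 (-0.12), Ctsg (-0.10) and Ms4a3 (0.41) overlapped with WT. The 2 genes of 6 without overlap stand against 12.5% of all genes, and 0% of 11916 genes passed by limma (1165 had an unadjusted p under 0.05).

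Between the Terc-/- samples, the third and the fourth Mpo probes gave the widest differences of the 10 probes. On the fourth, p-p53 samples averaged 14.57 ± 0.23 (SD, n = 2) and p-Foxo3a samples 11.42 ± 2.09 (SD, n = 2), a difference of 3.14 ± 1.05 (SE) or 8.84-fold, with an adjusted p of 0.970 by limma over all kept probes. The third differed by 3.18 ± 1.05 (SE), or 9.09-fold, and on both probes every p-p53 sample lay above every p-Foxo3a sample. The sample with no status read 12.83 on the fourth probe, close to p-Foxo3a replicate 1 at 12.90. On the second probe Mpo differed by 1.23 ± 0.58 (SE), without overlap (adjusted p = 0.970 by limma over all kept probes). On the first probe Mpo differed by 0.99 ± 0.47 (SE), the groups overlapped and the adjusted p was 0.942 by limma. Without replicate 1 the first-probe difference was 1.93 and passed (adjusted p = 0.0192 by limma), and without replicate 4 it was 0.05, so the call rests on replicate 4. Over all alternatives its adjusted p ran from 0.0192 to 0.998 by limma.

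Ms4a3 was higher in p-p53 samples by 0.92 ± 0.99 (SE) on the brighter and 1.44 ± 1.02 (SE) on the dimmer probe, without overlap on either. Elane was higher by 0.27 ± 0.14 (SE), also without overlap. Without Terc-/- replicate 4 the difference of Ms4a3 on the brighter probe was 0.33 and that of Elane 0.08, and without Terc-/- replicate 1 they were 1.51 and 0.46. Prtn3 (0.15), Ctsg (0.18) and Serpinb1a (-0.09) overlapped, with 95% intervals of -0.25 to 0.54, -0.61 to 0.97 and -0.49 to 0.31. With 2 samples on each side, 29.6% of all genes did not overlap, and 2 of the 6 genes did not on their brightest probe. The adjusted threshold was passed by 0% of 11916 genes by limma (613 had an unadjusted p under 0.05).

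A list for granule packaging and activation, which also holds lysozymes and lysosomal enzymes, had 13 measured genes. Of these, 6 were higher and 7 lower in Terc-/- samples, with a median of -0.02 against -0.01 over all genes, and none passed. Ctsc encodes the peptidase that activates the granule proteases. Its level in p-p53 samples differed from that in p-Foxo3a samples by -0.86 ± 0.34 (SE) (adjusted p = 0.942 by limma), the smallest unadjusted p of this list, while Mpo was higher there. Of 9 measured genes of haem synthesis and of peroxidase folding, 5 were higher and 4 lower in Terc-/- samples, with a median of 0.03 and none past the threshold. Slc25a38, a mitochondrial glycine carrier for haem synthesis, differed by 0.26 ± 0.19 (SE).

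Of 13 measured paralogues and neighbours, 7 were higher and 6 lower, with a median of 0.01 and none past the threshold. Serpinb8, a relative of Serpinb1a, differed by -0.40 ± 0.13 (SE) between p-p53 and p-Foxo3a samples, at levels near the background limit (means 6.39 and 6.78). Of 12 measured transcription factors known to act on granule genes, 5 were higher and 7 lower in Terc-/- samples, with a median of -0.04 and none past the threshold. Cebpb, which drives granulocyte production under stress, differed by -0.68 ± 0.20 (SE) between p-Foxo3a and WT samples, without overlap (adjusted p = 0.460 by limma). Spi1, which encodes PU.1, differed by -0.35 ± 0.17 (SE) there, with overlap. It read 9.37 in p-Foxo3a replicate 1 and 9.99 in replicate 4, against 9.81 to 10.15 in the WT samples. The low value was thus not in replicate 4, where Mpo was lowest. Irf8, a factor of the monocyte branch, differed by -1.41 ± 0.73 (SE) between p-p53 and p-Foxo3a samples (adjusted p = 0.942 by limma).

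A list of the later, secondary and tertiary granules had 14 measured genes. It also holds other late neutrophil genes, such as S100a8, S100a9, Ltb4r1 and Padi4. Of the 14 genes, 12 were lower and 2 higher in Terc-/- samples, with a median of -0.78 against -0.01 over all genes, and none passed. Chil3, a chitinase-like protein of neutrophil granules, differed by -2.50 ± 0.88 (SE) between p-Foxo3a and WT samples (adjusted p = 0.471 by limma), with 14.28 in replicate 1 and 10.48 in replicate 4. Against WT, 13 of the 14 genes were lower in p-Foxo3a samples (median -1.01) and 10 in p-p53 samples (median -0.48). Between the statuses, 14 of 14 were higher in p-p53 samples, with a median of 0.59 against 0.01 over all genes, and none passed. The mean of the 14 genes was lowest in Terc-/- replicate 4, at 10.08, where Mpo, Elane and Prtn3 were lowest. It was next lowest in the averaged p-p53 replicates 2 and 6, at 10.56, where the third and the fourth Mpo probes were highest. It was 12.60 in WT replicate 4, where Ms4a3 was lowest, and its highest value, 12.86, was in Terc-/- replicate 3, above every WT sample. Of 12 mature neutrophil markers, 9 of them also in this list, 11 were on the array. Of these markers 10 lay above the limit in some sample, 9 in every sample, and Mmp8 in none. Their summed linear level ranged from 101000 to 194000 in WT and from 38400 to 226000 in Terc-/- samples, and their part in the results on Mpo and Ms4a3 was not tested. The mean of the 8 eosinophil, basophil or mast cell markers was 9.17, 7.68, 7.47, 7.55 and 8.69 in the WT samples and 6.73, 7.42, 7.62, 8.70 and 7.98 in the Terc-/- samples. It was thus highest in WT replicate 1 and Terc-/- replicate 4, where the third and the fourth Mpo probes were lowest, and lowest in Terc-/- replicate 1, which was not highest for Mpo. The eosinophil granule gene Prg2 read 15.22, 10.42, 7.62, 10.17 and 12.71 in the WT samples. In the Terc-/- samples, in the same order as above, it read 7.28, 6.65, 10.025, 13.67 and 10.99. Mcpt8, also of these 8 genes, was instead highest in the averaged Terc-/- replicates 2 and 6, at 8.01. The summed linear level of these 8 genes ranged from 2340 to 50000 in WT and from 877 to 18900 in Terc-/- samples, and Epx, which encodes eosinophil peroxidase, stayed near the background limit, at most 6.93. Their part in the Mpo values was not tested. In bulk RNA, fewer cells of a type and less RNA per cell cannot be told apart.

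The genes whose values over the 10 samples were most like each of the 6 were found by Pearson correlation among the genes tested, as a description. The samples share 2 genotypes and the leukaemias' own differences. For the first probe of Mpo they were Elane (r = 0.977), Chil3 (0.939) and Aff2 (0.918). Without Terc-/- replicate 4 these became 0.650, 0.325 and -0.095, so the likeness rests largely on that sample. For the fourth probe of Mpo, added after seeing the data, the gene most like it was Rassf2, which encodes a Ras association domain protein (r = 0.990, and 0.974 without Terc-/- replicate 4). Elane was most like Mpo, Chil3 (0.966) and Chil4 (0.944), the last 2 at 0.703 and 0.611 without Terc-/- replicate 4. Prtn3 was most like Dram2 (0.928), Tbrg1 (0.925) and Sorl1 (0.908), and r stayed at 0.791 or above without any 1 sample.

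Ctsg was most like Fkbp5 (0.946), Lcn8 (0.941) and Stom (0.928). Ms4a3 was most like Pkm (0.915), Acbd4 (0.887) and Cltc (0.880), which became 0.766, 0.579 and 0.698 without WT replicate 4. Serpinb1a was most like Zcchc2 (0.886), Cfap298 (0.872) and Olfr670 (0.870). On the brightest probes, no other gene of the 6 was among the 3 most like Prtn3, Ctsg, Ms4a3 or Serpinb1a. Mpo entered that search by its first probe, which lay near the array maximum. Dram2, the gene most like Prtn3, was second for the fourth Mpo probe (0.920, and 0.789 without Terc-/- replicate 4).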

How the data were processed

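RNA of the sorted cells was labelled with biotin and measured on Illumina bead arrays, per the labels' protocols. The deposited values were used as given. They lie on a log2 scale as deposited by the authors, a base read from their range. The submitters' processing notes name GenomeStudio. How values were normalized or corrected for background, and with which version, is not given in the sources used here. Sorted values differed by at most 0.09 between arrays, so all arrays share nearly the same median and maximum. A raw-signal table has 24 value columns that name no sample, and they were used in no step.

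The background limit of 6.57 lies 1.645 SD above the mode of all values (6.35), with the SD taken from the values below the mode (0.13). A probe was kept when above it on at least 3 of 12 arrays. The brightest kept probe stood for each of 11916 genes. Of all probes, 32034 have 1 annotated gene and 31976 matched by Entrez identifier.

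Tests were two-sided, from limma 3.58.1 (lmFit, eBayes; R 4.3.3), with Benjamini-Hochberg adjustment over all genes (all kept probes where a single probe is tested) at 0.05. The fits were tested on simulated data. Alternatives were the probe choice, filter, background, normalization, spread, array averaging and each sample left out. All 6 genes and all their probes are named, with, from each gene list, genes among the 3 of smallest unadjusted p, and the 3 genes most like each of the 6. The genes and lists were chosen with earlier results of these data known.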

Additional observations from a re-analysis of the deposited data

Results flagged for a closer look

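With 10 probes and both groups of 5 samples, 20 groups were checked for a sample whose gap to its nearest neighbour exceeded Dixon's 95% value of 0.71 of the group's range. Chance gives such a sample in about 1 of 20 independent groups (5%). These groups are not independent, since probes of 1 gene and all genes read the same 10 samples. The 8 readings found come from 3 samples.

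Terc-/- replicate 4 accounts for 4 of them. It read 13.72 on the first Mpo probe, where the nearest Terc-/- sample read 15.59, and 13.30 on the second, where the nearest read 15.49. It also read 15.37 for Elane and 15.39 for Prtn3, where the nearest samples read 15.76 and 15.74. On the third and the fourth Mpo probes, where it lay 13-fold below the other Terc-/- samples' median, its gap did not exceed that value, because the other samples also spread there.

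WT replicate 1 accounts for 2, at 15.49 on the first and 14.96 on the second Mpo probe. WT replicate 4 accounts for the other 2, at 11.09 on the brighter and 7.84 on the dimmer Ms4a3 probe, where the nearest WT samples read 13.57 and 10.56.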

How the results depend on the processing

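Of 558 values of the 24 differences under alternatives, 521 kept their direction and side of the threshold, 2 passed the threshold that the reported value missed, 35 changed sign and 0 lost a call. Every difference of Serpinb1a from WT kept its sign under all alternatives run. Where a value changed sign, the cause was not tested.

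In the Terc-/- minus WT comparison, Ctsg was -0.011 without the sample of no status. Leaving out 1 sample gave from -0.48 to 0.035 for Mpo, from -0.091 to 0.047 for Prtn3 and from -0.095 to 0.17 for Ctsg. For p-p53 minus WT it gave from -0.045 to 0.083 for Mpo, from -0.014 to 0.020 for Elane, from -0.037 to 0.064 for Prtn3, from -0.20 to 0.36 for Ctsg and from 0.74 to 1.61 for Ms4a3. For p-Foxo3a minus WT it gave from -1.92 to -0.031 for Mpo, from -0.34 to 0.091 for Prtn3, from -0.50 to 0.30 for Ctsg and from -0.18 to 0.99 for Ms4a3. For p-p53 minus p-Foxo3a it gave from 0.050 to 1.93 for Mpo, from -0.068 to 0.36 for Prtn3, from -0.22 to 0.58 for Ctsg, from 0.077 to 0.46 for Elane, from 0.33 to 1.51 for Ms4a3 and from -0.20 to 0.021 for Serpinb1a. A status group left with 1 sample was assumed to vary like the others.

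The number of genes past the threshold, 0 in each comparison as reported, was at most 1 without any 1 sample for Terc-/- minus WT, 15 for p-p53 minus WT, 260 for p-Foxo3a minus WT and 29 for p-p53 minus p-Foxo3a, and at least 0. The 260 and the 29 came without Terc-/- replicate 4, and the 15 without replicate 3, which also gave the 1 for Terc-/- minus WT and 12 for p-p53 minus p-Foxo3a. Without replicate 1, Mpo alone passed in both p-Foxo3a comparisons, and without the averaged replicates 2 and 6, 1 gene passed in both p-p53 comparisons. Leaving out replicate 4 leaves replicate 1 alone as the p-Foxo3a group, so the counts of those fits rest on 1 p-Foxo3a sample. The array of replicate 1 differed more than 2-fold from each other array in 824 to 1598 kept probes. Pairs of the other arrays differed so in at most 1128. With all 12 arrays as separate samples, p-p53 minus WT gave 1 gene and Elane was -0.0018 there.

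Replicate numbers showed no clear pairing of the samples. As deviations from their group means, same-numbered samples correlated between -0.22 and 0.15, and 0 of 6 correlated best with its own number. These 6 values are too few to show a weak effect shared by number. With all 12 arrays and a replicate block, 0 genes passed in each comparison. The replicate block gave -0.0049 for Elane, -0.030 for Prtn3 and -0.019 for Ctsg in p-p53 minus WT, 0.22 for Ctsg in p-Foxo3a minus WT, and -0.0029 for Prtn3, -0.24 for Ctsg and -0.84 for Ms4a3 in p-p53 minus p-Foxo3a. Slide as a block was not run, because no slide maps to a sample. Taking the least bright probe of each gene, chosen after seeing the data, gave -2.10 for Mpo in p-Foxo3a minus WT and 3.14 in p-p53 minus p-Foxo3a, and 0 genes passed.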
